A study of Homo sapiens with 12 samples.

Results

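Autophagy is the route by which a cell encloses parts of its own cytoplasm in a membrane and delivers them to the lysosome for breakdown. The ULK1 kinase complex starts the process, the class III PI3-kinase complex with BECN1 and ATG14 makes the lipid PI3P at the new membrane, and WIPI proteins bind that lipid. ATG5 and ATG7 belong to the conjugation systems that attach ATG8 proteins such as MAP1LC3B and GABARAPL1 to the membrane, SQSTM1 (p62) ties cargo to them, and the transcription factor TFEB drives lysosome and autophagy genes. SQSTM1 and the ATG8 proteins are themselves broken down with the cargo, so that the level of an RNA, which was measured here, is not a rate of autophagy. In breast cancer cells, autophagy is studied mainly for its part in survival under stress and drug treatment.

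The 10 genes described here are SQSTM1, MAP1LC3B, GABARAPL1, WIPI1, ULK1, BECN1, ATG5, ATG7, ATG14 and TFEB. They were chosen by name, with earlier results of these data known. They are the rows of the count table whose identifiers carry these symbols, and all 10 were found among 63568 gene rows. RNA was sequenced in 12 samples of MDA-MB-231, a human triple negative breast cancer cell line, which here carried GFP, had the genotype given as WT and grew in droplets of Matrigel, a basement membrane gel. There were 2 samples in each of 6 conditions. C1 was untreated and taken on day 2, C2 was untreated and taken on day 4, and the other 4 conditions received Paclitaxel, which binds and stabilises microtubules, at 0.0005, 0.005, 0.05 or 0.5 μM and were taken on day 4. The labels place the drug on day 2. The study's methods refer instead to its imaging procedure, in which Paclitaxel was added later than the day these samples were taken. The labels were followed here, and the length of exposure is uncertain. By the labels' collection days all treated samples are older than the C1 samples, and treatment and day cannot be told apart where C1 serves as control. The study's methods call the 2 samples of a condition biological replicates. The line was cultured alone, and the cells were freed from the gel with collagenase and dispase before RNA was taken.

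Coordinates are on GRCh37. SQSTM1 (ENSG00000161011) lies at chr5:179233398-179265078 on the plus strand, MAP1LC3B (ENSG00000140941) at chr16:87417559-87438385 on the plus strand, and GABARAPL1 (ENSG00000139112) at chr12:10365057-10375727 on the plus strand. WIPI1 (ENSG00000070540) lies at chr17:66417089-66453654 on the minus strand and ULK1 (ENSG00000177169) at chr12:132379167-132407695 on the plus strand. BECN1 (ENSG00000126581) lies at chr17:40962152-40985367 on the minus strand and ATG14 (ENSG00000126775) at chr14:55833109-55878548 on the minus strand. ATG5 (ENSG00000057663) spans chr6:106493298-106773666 on the minus strand, ATG7 (ENSG00000197548) chr3:11313995-11599139 on the plus strand, and TFEB (ENSG00000112561) chr6:41651716-41703997 on the minus strand. Exons of 8 of the 10 genes overlap an exon on the opposite strand, ULK1 and ATG5 being the exceptions. The overlaps run from 60 bases for MAP1LC3B (FBXO31) to 1597 bases for ATG7 (VGLL4) and reach 1582 bases for SQSTM1 (MGAT4B and MRNIP), and since the strand setting of the counting is not given in the sources used here, reads in these stretches may belong to either gene. No other row had counts within 1% of a member in every sample, and the rows of the named pseudogenes SQSTM1P1, MAP1LC3BP1 and BECN1P2 held at most 2 counts in any sample.

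The promoters of the 4 genes that were higher in the treated samples are printed first, because these genes were called in the same comparison. Each is 300 bases from RefSeq on GRCh38.p14, 250 before the transcription start and 50 after it, read along the gene's strand, and capitals mark a match to 1 of 6 motifs that were searched on both strands. The windows are chr5:179820655-179820954 (plus strand) for SQSTM1, chr16:87392086-87392385 (plus strand) for MAP1LC3B, chr12:10212627-10212926 (plus strand) for GABARAPL1 and chr14:55411781-55412080 (minus strand) for ATG14.
SQSTM1: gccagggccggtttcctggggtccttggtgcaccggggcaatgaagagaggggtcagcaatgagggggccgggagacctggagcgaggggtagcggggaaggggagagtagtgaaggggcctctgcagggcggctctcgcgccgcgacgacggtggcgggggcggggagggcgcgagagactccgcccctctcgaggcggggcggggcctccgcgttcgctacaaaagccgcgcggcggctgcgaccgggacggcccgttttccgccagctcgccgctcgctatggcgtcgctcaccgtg
MAP1LC3B: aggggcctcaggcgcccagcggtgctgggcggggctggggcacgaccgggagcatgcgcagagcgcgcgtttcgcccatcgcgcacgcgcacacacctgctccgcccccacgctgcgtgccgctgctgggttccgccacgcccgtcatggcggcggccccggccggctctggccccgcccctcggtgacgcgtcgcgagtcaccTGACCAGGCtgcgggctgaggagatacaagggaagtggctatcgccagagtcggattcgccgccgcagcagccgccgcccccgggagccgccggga
GABARAPL1: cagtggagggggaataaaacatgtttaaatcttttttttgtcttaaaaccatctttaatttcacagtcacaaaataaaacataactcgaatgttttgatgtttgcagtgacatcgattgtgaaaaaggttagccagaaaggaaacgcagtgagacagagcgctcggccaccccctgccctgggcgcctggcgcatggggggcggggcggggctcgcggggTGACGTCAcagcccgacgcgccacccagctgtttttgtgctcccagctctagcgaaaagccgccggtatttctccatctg
ATG14: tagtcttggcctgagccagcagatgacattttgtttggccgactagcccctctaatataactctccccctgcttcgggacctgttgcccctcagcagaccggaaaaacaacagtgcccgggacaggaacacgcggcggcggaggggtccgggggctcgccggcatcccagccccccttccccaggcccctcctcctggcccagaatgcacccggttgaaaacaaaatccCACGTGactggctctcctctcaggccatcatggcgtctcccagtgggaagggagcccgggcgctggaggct
The motifs were CACGTG (the E-box bound by the TFEB family), TGACNNNGC (core of the antioxidant response element), TGACTCA (AP-1), TGACGTCA (cAMP response element), GTAAACA (FOXO) and TGATGNAA (bound by ATF4 with C/EBP factors). In these windows no match overlapped another. The ATG14 window holds CACGTG, which begins 21 bases before the start and is in 7.26% of all 35116 promoters of the table. The GABARAPL1 window holds TGACGTCA from 30 bases before the start (1.85% of all promoters), and the MAP1LC3B window holds TGACNNNGC from 46 bases before it (13.3%). No match was found in the SQSTM1 window, in its 2 further promoters in the table, or in the promoters of the other 6 members. The AP-1, FOXO and ATF4 motifs, which are in 4.95%, 3.42% and 3.62% of all promoters, matched in none of the 15 promoters of the 10 genes. These are letters in a window and no measurement of binding was made.

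Totals ran from 38380629 to 79169121 counts per sample, with a median of 65977095.5. The 2 samples of C1 stood apart from each other. Their log2 CPM (counts scaled to library sizes that TMM had normalised, the unit CPM) correlated at r = 0.943 over genes with a median absolute difference of 0.42, against at least 0.989 and 0.06 to 0.16 in the other 5 conditions. C1 replicate 2 had the lowest total and the largest mitochondrial share, 7.74% against 3.73% to 6.18% in the other 11 samples, and the values of the members and other pathway genes called in treated against untreated samples are therefore also given without both C1 samples. Contrasts of a single dose with C1 were not repeated without a C1 sample. The markers of the line were high in all samples (VIM 797 to 1366 CPM, CD44 237 to 388 CPM), ESR1 and PGR were at most 0.460 CPM, and ERBB2 lay between 26.6 and 52.4 CPM. The 3 leukocyte markers summed to 1.05 to 1.71 CPM in treated and 0.447 to 0.644 CPM in untreated samples, most of it CD14, with PTPRC and CD3E at 0 in some samples. The 8 fibroblast markers summed to 13.1 to 21.7 CPM in treated and 9.22 to 17.0 CPM in untreated samples, most of it COL1A1 and PDGFRB, with COL1A2, DCN and FAP at 0 in some. Single fibroblast markers moved more than the sum. PDGFRA had 0.115 and 0.129 CPM in C2 against 2.16 and 2.00 CPM at 0.05 μM, COL3A1 0.129 to 0.344 CPM in untreated against 0.374 to 1.52 CPM in treated samples, and FAP 0 or 1 count in untreated against 5 to 14 counts in treated samples. For the 2 endothelial markers the sums were 0.540 to 1.15 and 0.0298 to 0.704 CPM, with VWF at 0 in some, and the part of these markers in the results below was not tested.

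All 10 genes passed the filter on low counts, the lowest being TFEB with 58 to 267 counts per sample and the highest SQSTM1 with 8431 to 52120. Levels between genes are compared per kilobase of exon. On that scale SQSTM1 was the most abundant, with a mean of 70.1 CPM per kilobase over the 12 samples, and MAP1LC3B followed with 28.2. ATG5 (11.8), BECN1 (10.5), GABARAPL1 (9.26), WIPI1 (9.12) and ATG14 (8.72) formed a middle group, and ATG7 (3.07), ULK1 (2.96) and TFEB (0.403) were lowest. The cargo receptor and the first ATG8 gene were thus also the most abundant RNAs of the list, while the RNA of the regulator TFEB was the scarcest.

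**Figure D1:**
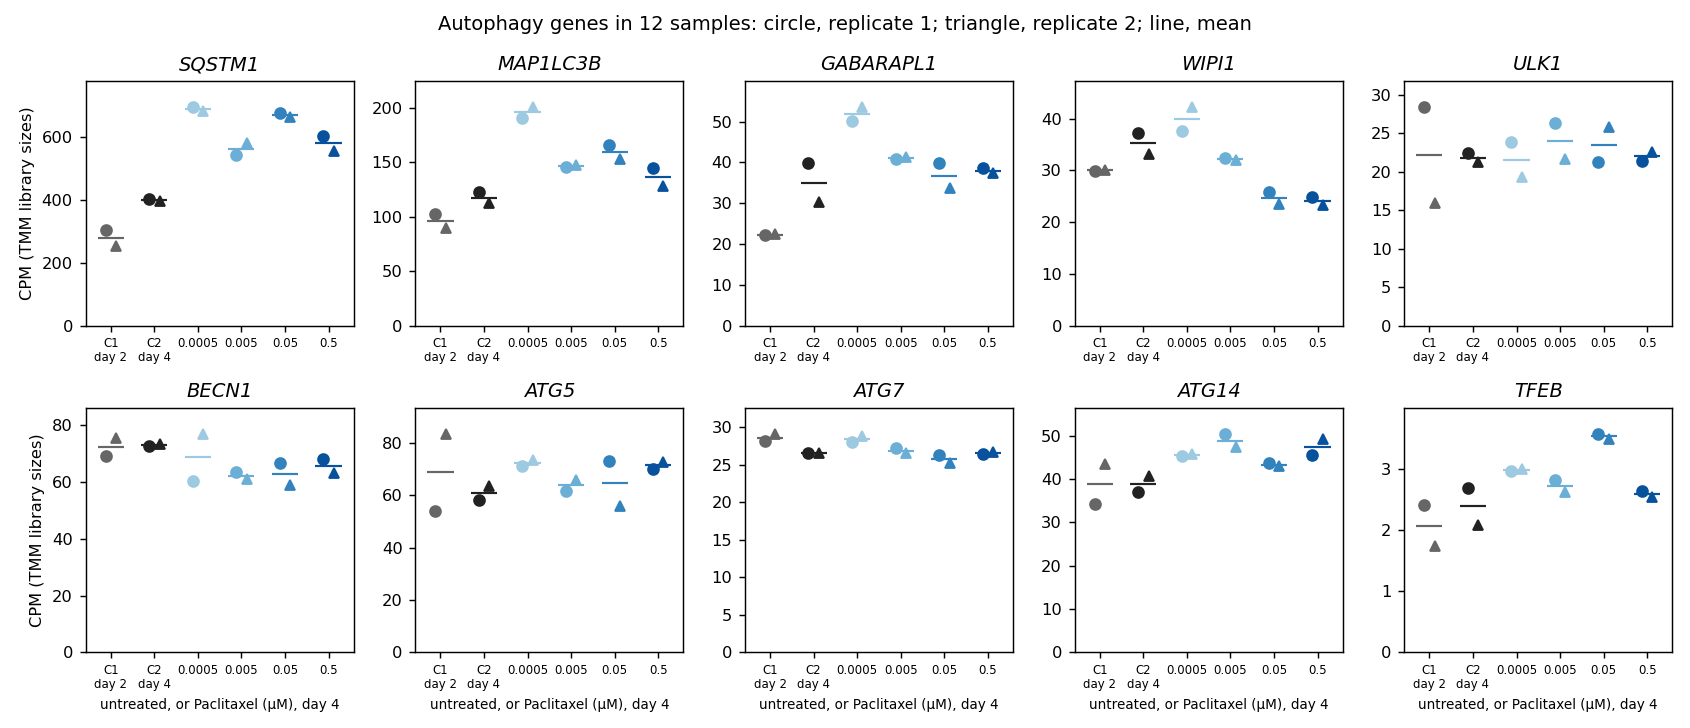
CPM of the 10 autophagy genes in each of the 12 samples, 1 panel per gene with the y axis from 0; circles are replicate 1, triangles replicate 2 and lines the mean of the 2. For SQSTM1 and MAP1LC3B all 8 treated samples lie above all 4 untreated samples, and for WIPI1 the 4 samples at 0.05 and 0.5 μM are the lowest of the 12.

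The first comparison asks which of these RNAs differ between cells given Paclitaxel and cells left untreated, at any dose. SQSTM1, MAP1LC3B, GABARAPL1 and ATG14 were higher in the 8 treated than in the 4 untreated samples, and none of the 10 was called lower. Calls needed an adjusted p under 0.05 in edgeR's quasi-likelihood fit, with the Benjamini-Hochberg correction over 25249 genes, which called 24.4% of all genes, 13.1% higher and 11.3% lower. The 4 of 10 are set beside that background as a description, since the members were chosen with earlier results of these data known. Without both C1 samples 1 of the 10 was called, against 13.6% of all genes in that fit. With all 12 samples 5 members had an unadjusted p under 0.05. The median log2 fold change of the 10 was 0.16, against -0.0019 over all genes tested and -0.14 over the 12245 genes with a mean of at least 5 CPM. Because the RNA is bulk, fewer cells of a kind and less RNA per cell cannot be told apart.

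SQSTM1 encodes p62, the receptor that binds ubiquitin-tagged cargo on one side and ATG8 proteins on the other. Its CPM were 303 and 251 in C1, 403 and 397 in C2, 693 and 680 at 0.0005 μM, 540 and 580 at 0.005 μM, 676 and 662 at 0.05 μM and 602 and 556 at 0.5 μM. All 8 treated samples were above all 4 untreated ones, which was so, in that direction, for 7.39% of all genes tested. Treated samples were higher by a log2 fold change of 0.88 (standard error 0.14, adjusted p = 0.000267). Without both C1 samples the value was 0.65 and remained called (adjusted p = 0.00458). Against C2 alone, the mean of the 4 doses was higher by 0.63 (standard error 0.12, adjusted p = 0.00797), a call that was lost without C2 replicate 1 (0.65, adjusted p = 0.135) or C2 replicate 2 (0.61, adjusted p = 0.0923).

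MAP1LC3B encodes LC3B, the ATG8 protein most used as a marker of autophagosomes. It had 102 and 90.1 CPM in C1, 122 and 112 in C2, 191 and 200.3 at 0.0005 μM, 146 and 147 at 0.005 μM, 166 and 153 at 0.05 μM and 145 and 128 at 0.5 μM. Again all 8 treated samples exceeded all 4 untreated ones, the closest pair being 128 CPM in the lower sample at 0.5 μM and 122 CPM in the higher C2 sample. The log2 fold change of treated against untreated samples was 0.58 (standard error 0.13, adjusted p = 0.00359). It was 0.45 without both C1 samples, where the call was lost (adjusted p = 0.0532). The mean of the doses against C2 was 0.43 (standard error 0.11, adjusted p = 0.0307), and that call was lost without either replicate of C2 or of any dose, with log2 fold changes of 0.36 to 0.49 and adjusted p of 0.0553 to 0.242.

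GABARAPL1, a second ATG8 gene, had 22.2 and 22.5 CPM in C1, 39.8 and 30.3 in C2, 50.1 and 53.5 at 0.0005 μM, 41.0 and 41.5 at 0.005 μM, 39.8 and 33.7 at 0.05 μM and 38.7 and 37.4 at 0.5 μM. Both C1 samples were the lowest of the 12, and the 2 C2 samples overlapped with the samples of the 2 highest doses. The log2 fold change of 0.55 against all untreated samples (standard error 0.16, adjusted p = 0.0171) was 0.43 without C1 replicate 1 (adjusted p = 0.0715) and 0.27 without both C1 samples (adjusted p = 0.245). Against C2 the mean of the doses was 0.25 higher (standard error 0.12, adjusted p = 0.233). With 1 sample left out in turn that value ranged from 0.053 to 0.46. The call therefore rests on the day 2 samples.

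ATG14 directs the class III PI3-kinase complex to the site where autophagosomes form. Its CPM were 34.2 and 43.5 in C1, 37.1 and 40.7 in C2, 45.4 and 45.9 at 0.0005 μM, 50.5 and 47.4 at 0.005 μM, 43.7 and 43.0 at 0.05 μM and 45.6 and 49.2 at 0.5 μM. All 8 treated samples were above both C2 samples, as in 12.1% of all genes tested, and 7 of 8 were above all 4 untreated samples. The log2 fold change was 0.25 (standard error 0.09, adjusted p = 0.0446). This small change stood close to the threshold: the call was lost under 13 of 18 alternatives, with log2 fold changes of 0.19 to 0.27 and adjusted p of 0.0569 to 0.159. Without both C1 samples it was 0.26 (adjusted p = 0.0722). The libraries whose removal ended it were C1 replicate 1, both of C2, 0.0005 μM replicate 1 and both at the 3 higher doses.

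TFEB, the regulator, was the member closest to the threshold from the other side. It had 2.4 and 1.73 CPM in C1, 2.68 and 2.08 in C2, 2.96 and 2.99 at 0.0005 μM, 2.82 and 2.62 at 0.005 μM, 3.57 and 3.48 at 0.05 μM and 2.64 and 2.54 at 0.5 μM. Of the 8 treated samples 5 were above all untreated ones, and the 2 samples at 0.05 μM were the highest of all. The log2 fold change was 0.40 (standard error 0.15, adjusted p = 0.0544). It was 0.50 and called without C2 replicate 1 (adjusted p = 0.0419), and 0.56 with offsets for GC content and gene length (adjusted p = 0.00305).

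The other 5 members were not called. BECN1, the regulatory subunit of the PI3-kinase complex, had between 69.2 and 75.6 CPM in untreated and between 59.0 and 77.0 CPM in treated samples. Of the 8 treated samples 7 lay below all untreated ones, with a log2 fold change of -0.16 (standard error 0.09, adjusted p = 0.182). That value was near the median of -0.14 over genes with a mean of at least 5 CPM, 72.3% of which were below 0. For how many genes 7 of the 8 treated samples lay so was not counted. ATG7, the E1-like enzyme of both conjugation systems, was the most even member, with 25.2 to 29.1 CPM over the 12 samples and a log2 fold change of -0.04 (standard error 0.08, adjusted p = 0.775). ATG5, part of the complex that places ATG8 proteins on the membrane, differed most between the replicates of C1, at 54.0 and 83.4 CPM, and the 8 treated samples (56.0 to 73.5 CPM) lay between them, with a log2 fold change of 0.07 (standard error 0.12, adjusted p = 0.692).

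ULK1, the kinase that starts autophagy, likewise had its highest and lowest sample in C1, at 28.4 and 15.9 CPM, with all 8 treated samples (19.3 to 26.4 CPM) between them. Its log2 fold change was 0.05 (standard error 0.13, adjusted p = 0.815). With the GC and length offsets it was 0.24 and called (adjusted p = 0.0311). WIPI1 had a log2 fold change of -0.11 over all doses together (standard error 0.15, adjusted p = 0.631), which joins doses that lay on both sides of the untreated samples.

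**Figure D2:**
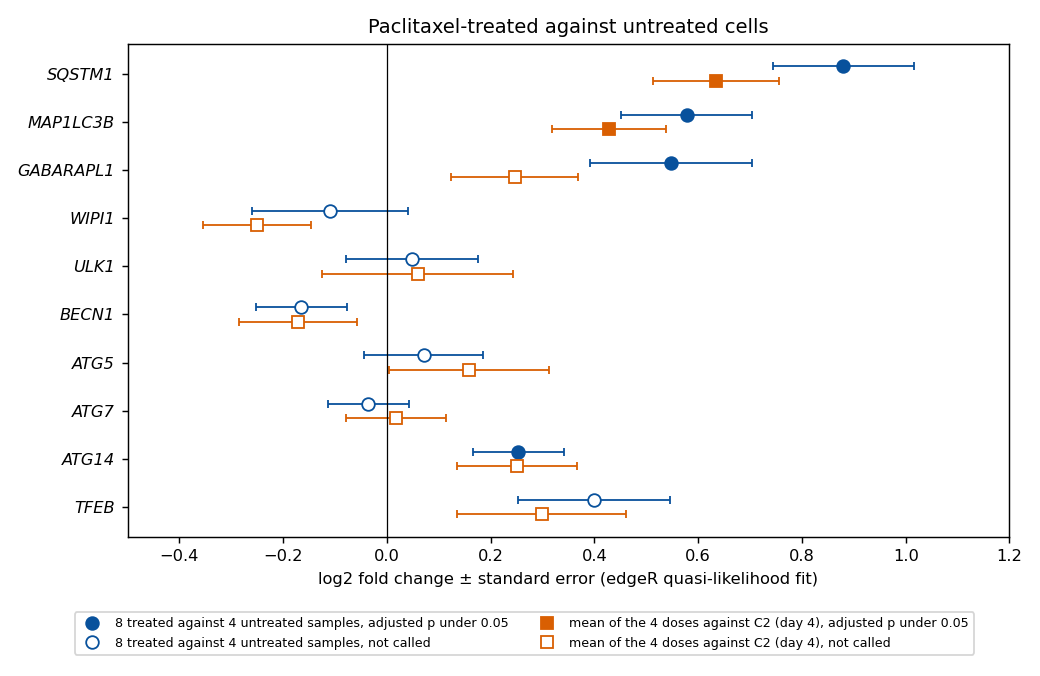
Log2 fold change (x axis) of the 10 genes with the standard error of the edgeR fit as bars, for 8 treated against 4 untreated samples (circles) and for the mean of the 4 doses against C2 (squares); filled symbols have an adjusted p under 0.05 and both comparisons use the same treated and C2 samples. SQSTM1 (0.88 and 0.63) and MAP1LC3B (0.58 and 0.43) are filled in both, GABARAPL1 (0.55 and 0.25) and ATG14 (0.25 and 0.25) in the first only.

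Next, each dose was set against the untreated samples of the same day, to see at which dose the RNAs differed. The 4 doses share the 2 C2 samples, so their values are given side by side and are not separate evidence. Leaving out 1 C1 sample, which is in none of these contrasts, raised the calls over all genes in each of them (at 0.005 μM from 827 to 3316 and 3231), and leaving out C2 replicate 1 lowered them (to 85 at 0.005 μM). For the mean of the 4 doses, SQSTM1 and MAP1LC3B were called, both higher, 2 of 10 against 9.74% of all genes (5.64% higher), and the median over the 10 was 0.20 against 0.0021 over all genes. At the lowest dose, 0.0005 μM, the same 2 genes were called, against 2.34% of all genes (1.87% higher). SQSTM1 was 0.78 higher (standard error 0.15, adjusted p = 0.0154), MAP1LC3B 0.74 (standard error 0.14, adjusted p = 0.0134), and GABARAPL1 had a value of 0.56 (standard error 0.15, adjusted p = 0.0793). With 1 sample left out in turn the GABARAPL1 value ranged from 0.37 to 0.78. GABARAPL1 was called under 6 of 19 alternatives, namely DESeq2 (0.57, adjusted p = 0.0256), the GC and length offsets (0.55, adjusted p = 0.0166), without C1 replicate 1 (0.56, adjusted p = 0.0109) or C1 replicate 2 (0.57, adjusted p = 0.00795), with the 4 samples of the comparison alone (0.59, adjusted p = 0.00203) and with both untreated days as control (0.89, adjusted p = 0.00123). The calls of SQSTM1 and MAP1LC3B were lost without any 1 of the 4 samples at 0.0005 μM and in C2, with log2 fold changes of 0.67 to 0.80 and adjusted p of 0.0897 to 0.161.

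At 0.005 μM edgeR called none of the 10, although 3 had an unadjusted p under 0.05, with 3.28% of all genes called, and DESeq2 called 1 member, SQSTM1. SQSTM1 had a value of 0.49 (standard error 0.15, adjusted p = 0.0970) and MAP1LC3B 0.32 (adjusted p = 0.224). Leaving out C1 replicate 1 or 2, samples that are not in this contrast but enter its estimate of spread, left SQSTM1 at 0.48 and 0.50 and called (adjusted p = 0.0226 and 0.0173).

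At 0.05 μM SQSTM1 was 0.74 higher (standard error 0.15, adjusted p = 0.0108) and WIPI1 fell by 0.51 on the log2 scale (standard error 0.13, adjusted p = 0.0367), 2 of 10 against 8.32% of all genes (5.09% higher and 3.23% lower). MAP1LC3B had a value of 0.44 (adjusted p = 0.0656) and TFEB of 0.56 (standard error 0.20, adjusted p = 0.107). The SQSTM1 call was lost without any 1 of the 4 samples at 0.05 μM and in C2, with values of 0.72 to 0.75 and adjusted p of 0.0559 to 0.107. MAP1LC3B was called under 6 of 19 alternatives. These were DESeq2, the GC and length offsets, the 4 samples of the comparison alone, both untreated days as control, and without C1 replicate 1 (0.43) or 2 (0.45).

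At the highest dose, 0.5 μM, WIPI1 alone was called, 1 of 10 against 6.32% of all genes (1.96% lower), and it fell by 0.55 (standard error 0.13, adjusted p = 0.0346). SQSTM1 had a value of 0.53 (standard error 0.15, adjusted p = 0.0514), just above 0.05, and was called without C1 replicate 1 (adjusted p = 0.00906) or C1 replicate 2 (adjusted p = 0.00803) and by DESeq2 (adjusted p = 0.00876). MAP1LC3B had a value of 0.22 (adjusted p = 0.362) and GABARAPL1 of 0.12. Median log2 fold changes of the 10 from the lowest to the highest dose were 0.24, 0.16, 0.10 and 0.12, against -0.01, 0.04, -0.01 and 0.04 over all genes.

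**Figure D3:**
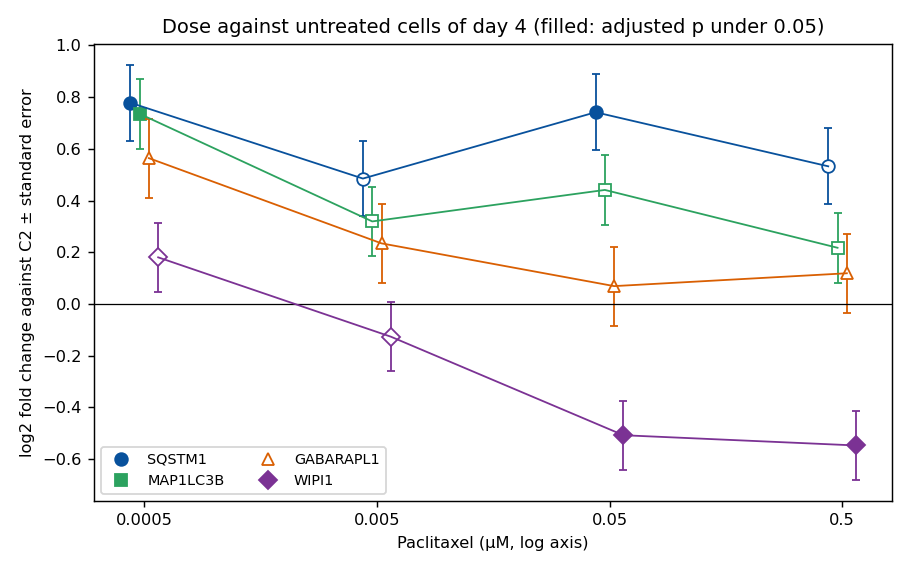
Log2 fold change against C2 (y axis) with its standard error at each Paclitaxel dose (x axis, log scale in μM) for SQSTM1, MAP1LC3B, GABARAPL1 and WIPI1, each value from 2 treated and the same 2 C2 samples; filled symbols have an adjusted p under 0.05. SQSTM1 stays between 0.49 and 0.78, and WIPI1 goes from 0.18 at 0.0005 μM to -0.55 at 0.5 μM.

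WIPI1, which binds PI3P on the forming membrane, was the 1 member whose slope on dose was called by edgeR with all treated samples. It had 30.0 and 30.1 CPM in C1, 37.3 and 33.1 in C2, 37.6 and 42.2 at 0.0005 μM, 32.4 and 32.0 at 0.005 μM, 25.9 and 23.6 at 0.05 μM and 24.9 and 23.3 at 0.5 μM. The 2 lowest-dose samples were above, and the other 6 treated samples below, both C2 samples. Across the 8 treated samples, in a fit that leaves out the untreated ones, it fell by 0.26 on the log2 scale per 10-fold dose (standard error 0.04, adjusted p = 0.00236), 1 of 10 members called against 3.06% of all genes (2.04% falling).

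That slope was called in all 13 alternatives, the leaving out of each treated sample included, with adjusted p of at most 0.0234. Between single doses, 0.5 μM was 0.73 lower than 0.0005 μM on the log2 scale, a value of -0.73 (standard error 0.13, adjusted p = 0.0410), and this pair of doses had 0.412% of all genes called. This difference was not repeated under the alternatives. The calls against C2 were less stable than the slope. When any 1 of the 10 samples of day 4 was left out, the call at 0.05 μM was lost, with values of -0.42 to -0.60 and adjusted p of 0.0592 to 0.264. The call at 0.5 μM was lost likewise, except without 0.05 μM replicate 2, with values of -0.46 to -0.64 and adjusted p of 0.0513 to 0.291. Without a filter beyond 1 count neither dose was called (adjusted p = 0.128 and 0.0539).

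The slopes of the 2 ATG8 members were also below 0 and were not called: -0.15 per 10-fold dose for GABARAPL1 (standard error 0.04, adjusted p = 0.0587) and -0.15 for MAP1LC3B (standard error 0.04, adjusted p = 0.0907). Both were highest at 0.0005 μM, in both replicates. The slope of GABARAPL1 was called under 5 of 13 alternatives, with values of -0.13 to -0.16: DESeq2 (adjusted p = 0.0127), RLE scaling (adjusted p = 0.0461), no filter beyond 1 count (adjusted p = 0.0145), the GC and length offsets (adjusted p = 0.0215) and without 0.05 μM replicate 2 (adjusted p = 0.0324). That of MAP1LC3B was called under 2 of 13, DESeq2 (-0.16, adjusted p = 0.0207) and no filter beyond 1 count (-0.15, adjusted p = 0.0419). SQSTM1 had a slope of -0.05 (adjusted p = 0.651). Of the 10 slopes 9 were below 0, as were 47.7% over all genes and 61.1% over genes with a mean of at least 5 CPM. The median of the 10 was -0.03, against 0.01 over all genes and -0.02 over genes with a mean of at least 5 CPM.

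The untreated samples of day 4 were compared with those of day 2 for the change with time alone. None of the 10 was called by edgeR, where 0.325% of all genes were, and 2 had an unadjusted p under 0.05. These were GABARAPL1 (0.65, standard error 0.15, adjusted p = 0.156) and SQSTM1 (0.53, standard error 0.15, adjusted p = 0.263), and DESeq2 called both. Without C1 replicate 1 edgeR called both, where the calls over all genes rose from 82 to 2682 of 26785, and without C1 replicate 2 it called GABARAPL1, with 1884 of 26797 genes called. The discordance of the C1 pair stands beside these values.

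Ordering the 6 conditions by mean level gives, for SQSTM1, C1, C2, 0.005, 0.5, 0.05 and 0.0005 μM from low to high, and for MAP1LC3B C1, C2, 0.5, 0.005, 0.05 and 0.0005 μM. Of the 50 steps between neighbours in the orders of the 10 genes, edgeR called 0, 4 had an unadjusted p under 0.05, and in 28 the samples of the 2 neighbours overlapped. The orders come from the tested samples, so neighbours are the closest conditions by construction and few calls follow from that. These counts and the pair counts that follow were not computed over all genes. Each gene has 15 pairs of conditions, of which 6 were called for SQSTM1, 5 for MAP1LC3B, 4 for GABARAPL1, 3 for WIPI1, 1 for TFEB and 0 for the other 5. Against C1, SQSTM1 was 1.31, 1.01, 1.27 and 1.06 higher from the lowest dose to the highest, MAP1LC3B 1.02, 0.61, 0.73 and 0.50, and GABARAPL1 1.21, 0.89, 0.72 and 0.77, all of them called. These 4 contrasts called 7.81%, 12.7%, 14.9% and 11.6% of all genes, join dose with day and rest on the discordant C1 pair. The 1 pair called for TFEB was 0.05 μM against C1 (0.75, standard error 0.20, adjusted p = 0.0287).

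Over the 12 samples, which share conditions and libraries, log2 CPM of SQSTM1 and MAP1LC3B correlated at Pearson r = 0.935, of MAP1LC3B and GABARAPL1 at 0.907, of SQSTM1 and GABARAPL1 at 0.858, and of SQSTM1 and TFEB at 0.843. For WIPI1 and SQSTM1 the coefficient was -0.07. ULK1 and ATG5 varied in opposite directions (r = -0.826), and the C1 pair holds the extremes of both. These coefficients describe 12 samples in 6 conditions and have no test.

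Among 11091 named genes with a mean of at least 5 CPM, those most like SQSTM1 over the 12 samples were RGS16 (r = 0.988), DDIT4 (0.988) and RND1 (0.982). For MAP1LC3B they were HLA-E (0.981), HLA-B (0.979) and HSPB8 (0.976), for GABARAPL1 ITGA1 (0.970), SGTB (0.970) and NCOA7 (0.968), and for ATG14 MALAT1 (0.947), RICTOR (0.945) and NARF (0.940). The single most similar genes were SLC33A1 for WIPI1 (0.973), TEP1 for ULK1 (0.964), IMMT for BECN1 (0.926), FYTTD1 for ATG5 (0.979), PLSCR1 for ATG7 (0.960) and ZFYVE1 for TFEB (0.953). Each of these was picked as the best of 11091 genes, so its coefficient is a description.

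The rest of the pathway was described with a list of 70 further autophagy and lysosome genes in 9 groups, of which 69 were matched and 68 tested. In the 8 treated against the 4 untreated samples 12 of the 68 were called (17.6%, below the 24.4% of all genes), 4 higher and 8 lower, with a median of -0.01. Without both C1 samples 5 were called, against 13.6% of all genes in that fit, and without C1 replicate 2 there were 19, against 26.4%. The 5 were RB1CC1 (0.51, adjusted p = 0.00472), ATG2B (-0.38, adjusted p = 0.0141), TMEM41B (-0.52, adjusted p = 0.0169), ATG9A (-0.58, adjusted p = 0.0173) and PRKAA1 (-0.30, adjusted p = 0.0320). The other 7 lost their call there, with values of -0.30 for PRKAA2, 0.33 for NRBF2, -0.31 for STX17, -0.35 for TECPR1, 0.23 for WDR45, -0.21 for ATG4C and 0.22 for OPTN and adjusted p of 0.0528 to 0.327. RB1CC1 and ATG2B were called in all 18 alternatives, and PRKAA2 in 4 of 18, which was the fewest of the 12.

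In the initiation group 3 of 8 were called, against 24.4% of all genes (13.1% higher and 11.3% lower). RB1CC1, the scaffold of the ULK1 complex, rose by 0.44 (standard error 0.11, adjusted p = 0.00916), while the catalytic subunits of AMPK, the energy sensor that phosphorylates ULK1, fell, PRKAA1 by 0.32 (adjusted p = 0.00668) and PRKAA2 by 0.25 (adjusted p = 0.0482), the latter a call made in 4 of 18 alternatives. PRKAA1 was called in 17 of 18, with values of -0.35 to -0.17, and lost its call with the GC and length offsets. It had 117 to 123 CPM in untreated and 90.3 to 103 CPM in treated samples, with no overlap, as in 5.77% of all genes tested in that direction. In the class III PI3-kinase group NRBF2, which binds the ATG14 complex, rose by 0.36 (adjusted p = 0.0131), from 52.0 to 65.7 CPM in untreated to 68.0 to 89.2 CPM in treated samples. These did not overlap, as in 7.39% of all genes tested in that direction, and NRBF2 was 1 of 6 called in its group, against the same 24.4%.

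The lipid transfer and PI3P reader group had 4 of 8 called, against 24.4% of all genes (13.1% higher and 11.3% lower), and 3 of the 4 without both C1 samples, where the call of WDR45 was lost (adjusted p = 0.131). ATG9A, the lipid scramblase of the vesicles that seed the membrane, fell by 0.62 (standard error 0.17, adjusted p = 0.0124), with 35.6 to 80.5 CPM in untreated and 27.3 to 43.8 CPM in treated samples, which overlap. The lipid transfer protein gene ATG2B fell by 0.37 (adjusted p = 0.00495) and the scramblase gene TMEM41B by 0.40 (adjusted p = 0.0168), whereas WDR45, a relative of WIPI1, rose by 0.28 (adjusted p = 0.0261). WDR45 and WIPI1, both of the PI3P-binding family, thus had values of opposite sign in this comparison, WIPI1 without a call, and the difference between them was not tested. ATG2B (27.3 to 33.5 CPM untreated, 22.0 to 26.6 CPM treated) and WDR45 (13.9 to 16.2 and 17.3 to 21.0 CPM) did not overlap between the arms, as in 5.77% of all genes tested in the lower and 7.39% in the higher direction. ATG9A was called in 17 of 18 alternatives (-0.77 to -0.42), the exception being without C1 replicate 1. TMEM41B was called in 16 (-0.52 to -0.31), the exceptions being the GC and length offsets and without C2 replicate 1.

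The calls in the next groups stand against the same 24.4% of all genes. Of 8 other conjugation genes ATG4C, a protease that processes ATG8 proteins, fell by 0.38 (adjusted p = 0.0173), and of 8 other cargo receptors OPTN rose by 0.46 (standard error 0.14, adjusted p = 0.0279). Of 7 genes for fusion with lysosomes the SNARE gene STX17 fell by 0.33 (adjusted p = 0.0160) and TECPR1 by 0.44 (adjusted p = 0.0345). Of 18 alternatives, STX17 was called in 17, ATG4C in 16, OPTN in 13 and TECPR1 in 12, with TECPR1 values of -0.55 to -0.24. None of the 4 other ATG8 genes, 4 other regulators and 15 lysosome and v-ATPase genes was called. By unadjusted p 1 of the 15 lysosome genes was under 0.05, and 11 of the 15 had a value below 0, as had 72.3% of the genes with a mean of at least 5 CPM. The median of the lysosome group was -0.07, and GABARAP, a close paralogue of GABARAPL1, had a value of -0.0042 (adjusted p = 0.985).

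For the mean of the 4 doses against C2, ATG2B (-0.39) and TMEM41B (-0.54) were called, 2 of 68 against 9.74% of all genes. TMEM41B was also the 1 gene of the 68 called at 0.5 μM, against 6.32% of all genes, and there it fell by 0.67 (standard error 0.13, adjusted p = 0.0139). The count was 13 and 14 without C1 replicate 1 or 2, where the calls over all genes rose from 1596 to 4955 of 26785 and 5046 of 26797. It was 0 without any 1 sample of C2 or of 0.5 μM, where 129 to 569 genes were called in all, and 11 with the 4 samples of the comparison alone, where 2578 of 22518 genes were called. At 0.0005 and 0.005 μM edgeR called 0 of 68, with 12 and 6 at an unadjusted p under 0.05. At 0.05 μM TMEM41B (-0.77), BNIP3L (-0.59) and PRKAA2 (-0.47) were called lower, 3 of 68 against 8.32% of all genes (3.23% lower). Along dose 4 of 68 were called, all falling, against 3.06% of all genes (2.04% falling), among them GABARAP (-0.17 per 10-fold dose), OPTN (-0.17) and the mitophagy receptor gene BNIP3L (-0.19). GABARAP and BNIP3L were named after their values were seen. Against C2, OPTN had values of 0.47, 0.28, 0.06 and -0.01 from the lowest to the highest dose, with adjusted p of 0.113, 0.309, 0.854 and 0.964, and 0.20 for their mean (adjusted p = 0.301), none of them called.

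**Figure D4:**
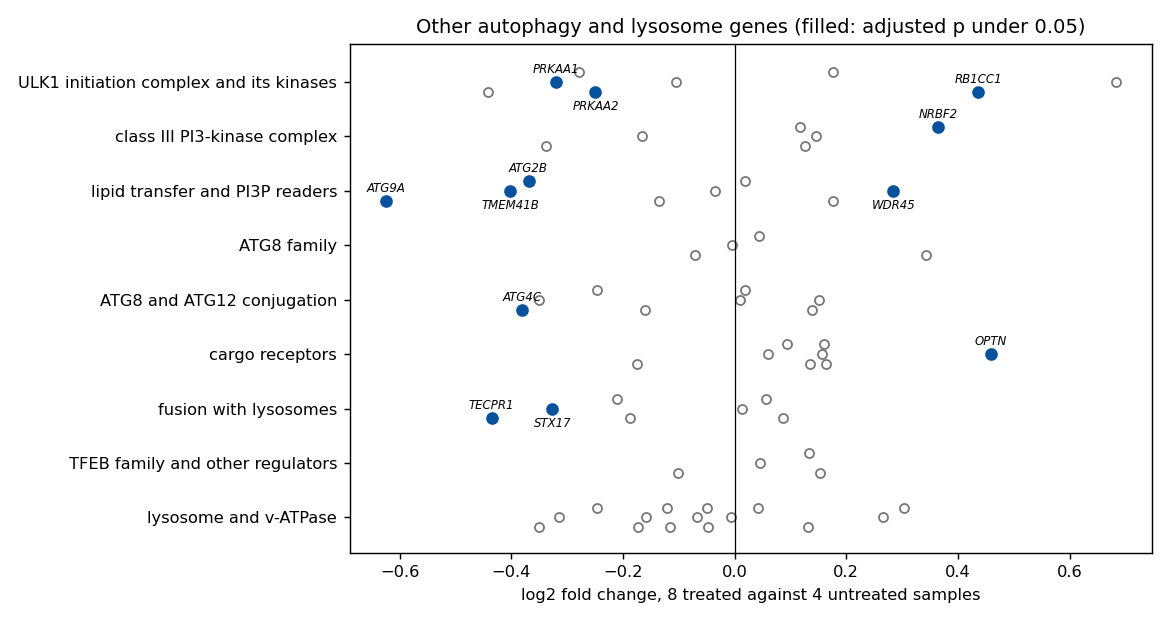
Log2 fold change in 8 treated against 4 untreated samples (x axis) for 68 other autophagy and lysosome genes in 9 groups (y axis, points shifted vertically for legibility); filled and named points have an adjusted p under 0.05. The 4 higher genes are RB1CC1, NRBF2, WDR45 and OPTN, and the 8 lower ones run from -0.25 (PRKAA2) to -0.62 (ATG9A).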

How the data were processed

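RNA-seq was performed on 12 samples, 2 in each of 6 conditions. The authors trimmed reads with Trimmomatic 0.39, aligned them to GRCh37 with STAR 2.7.5 (FastQC 0.11.9 is also in the submitters' processing notes), kept unique alignments and counted reads in exons per gene with Rsubread. The deposited files hold these whole-number counts without normalisation, and 12 of 12 single-sample tables were identical to the series table. The study's methods give a larger total of RNA-seq samples than the 12 used here. Whether samples or runs were pooled cannot be told from these files. A symbol was found for 55665 of 63568 rows.

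Counts were analysed in R 4.3.3 with edgeR 4.0.16: TMM scaling, filterByExpr with the 6 conditions as groups (25249 genes kept), and robust quasi-likelihood fits, with two-sided tests, the Benjamini-Hochberg correction over all genes kept and calls at 0.05. Doses, days and pairs of conditions came from 1 fit of 12 samples, which leaves 6 residual degrees of freedom. Treated against untreated samples (8 against 4) and the slope on log10 dose (8 treated samples) were fitted separately. A standard error is the size of a log2 fold change over the square root of its F. CPM use library sizes after TMM, with a prior count of 2 on the log2 scale. Exon lengths and coordinates are from GENCODE on GRCh37. The biological coefficient of variation was 15.6% among the conditions, and p-values measure the spread between samples that shared 1 line. The procedure was tested on simulated data.

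The members and the gene lists were chosen with earlier results of these data known. All 10 members are named. Of the other listed genes those called in treated against untreated samples or at 0.5 μM against C2 are named, at most 4 in a group, as are the most correlated genes (3 for a member called in treated against untreated samples, otherwise 1) among named genes with a mean of at least 5 CPM. PECAM1 was not matched to a row, MAP1LC3B2 did not pass the filter, and some single genes of the lists are not reported here. Alternatives were DESeq2 1.42.0, RLE scaling, no filter beyond 1 count, the replicate number as a block, GC content and length offsets, fits of only the 4 samples compared, both untreated days as control and leaving out each sample in turn. Leaving out both C1 samples was added after seeing the data.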

Additional observations from a re-analysis of the deposited data

Results flagged for a closer look

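WIPI1 was the 1 member called between 2 doses. Its log2 level at 0.5 μM minus that at 0.0005 μM was -0.73 (standard error 0.13, edgeR quasi-likelihood test, adjusted p = 0.0410), with 24.9 and 23.3 CPM at 0.5 μM and 37.6 and 42.2 CPM at 0.0005 μM, so that both samples were lower. This was 1 of 60 differences between doses that were tested over the 10 members and 6 pairs of doses. The correction ran over all genes within a pair of doses and not over the 60. For the same 2 doses MAP1LC3B had a value of -0.52 (adjusted p = 0.132) and GABARAPL1 of -0.45 (adjusted p = 0.216), neither called. Differences between doses were not repeated under the alternatives. For none of the 10 members did the highest or lowest of the 4 untreated or 8 treated samples stand apart by Dixon's test. The test was run on the level of each gene in these 20 sets and does not bear on the difference between the C1 libraries. Each set joins days or doses, whose differences widen its range, so a stray replicate could be missed.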

How the results depend on the processing

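SQSTM1 in treated against untreated samples was called in all 18 alternatives (log2 fold change 0.65 to 1.02), and WIPI1 along dose in all 13. Of 560 alternatives of 32 single values, 452 left direction and call as they were, 61 lost the call, 39 gained it and 8 changed sign. Where a count moved, the cause was not tested, except that fewer samples entered when libraries were left out. Leaving out 1 of the 2 samples of a condition leaves a condition whose lone sample is assumed to vary like the others.

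Leaving out each sample in turn gave 2 to 4 members called in treated against untreated samples (4 with all), 0 to 3 for the mean of the doses (2), 0 to 3 at 0.0005 μM (2), 0 to 2 at 0.005 μM (0), 0 to 4 at 0.05 μM (2), 0 to 2 at 0.5 μM (1), 0 to 2 for C2 against C1 (0) and 1 to 2 for the slope (1). For the other pathway genes it gave 8 to 19 in treated against untreated samples (12) and 0 to 14 at 0.5 μM (1). Without both C1 samples 1 member (SQSTM1) and 5 other pathway genes were called in treated against untreated samples (13.6% of all genes).

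The share of all genes called in the same fit is given in brackets, for DESeq2 out of all genes with at least 1 count. DESeq2 called 1 member at 0.005 μM (2.45%), 2 at 0.5 μM (4.25%), 2 for C2 against C1 (0.489%), 3 for the slope (3.41%), and 3 other pathway genes at 0.5 μM. RLE scaling called 2 members for the slope (3.39%). Without a filter beyond 1 count the members called were 1 at 0.05 μM (5.65%), 0 at 0.5 μM (5.74%) and 3 for the slope (3.03%), and 5 other pathway genes were called at 0.5 μM. GC content and length offsets called 6 members and 16 other pathway genes in treated against untreated samples (26.7%), the most of any alternative for the members, 4 members for the mean of the doses (14.4%), 2 at 0.005 μM (6.29%), 4 at 0.05 μM (12.4%), 3 at 0.5 μM (11.0%), 1 for C2 against C1 (0.775%) and 2 for the slope (6.09%), and 5 other pathway genes at 0.5 μM. The 4 samples of a comparison alone called 2 members at 0.005 μM (11.0%), 2 at 0.5 μM (11.4%) and 11 other pathway genes at 0.5 μM. Both untreated days as control called 3 members at 0.005 μM (13.5%), 4 at 0.05 μM (17.1%), 3 at 0.5 μM (14.4%) and 4 other pathway genes at 0.5 μM.

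The values that changed sign were all small and not called. With 1 sample left out in turn, ULK1 in treated against untreated samples ranged from -0.058 (without C1 replicate 2) to 0.19 and was also below 0 without 0.05 μM replicate 2 (-0.0097), ATG5 ranged from -0.012 (without C1 replicate 1) to 0.23, and ATG7 from -0.061 to 0.0064 (without C1 replicate 2). ATG7 was 0.068 with the GC and length offsets and 0.028 without both C1 samples. For the mean of the doses ULK1 ranged from -0.0090 to 0.0999 and ATG7 from -0.0061 to 0.022, both lowest without 0.05 μM replicate 2.

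Replicate numbers did not line up across conditions: same-numbered deviations of 15 pairs of conditions correlated between -0.60 and 0.682. A pairing or batch that the numbers do not follow was not tested. With the replicate number as a block 5 members were called in treated against untreated samples (TFEB added, adjusted p = 0.0493), 2 for the mean of the doses, 2, 0, 2 and 1 at the doses in rising order, 0 for C2 against C1 and 1 for the slope.

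Over all genes, alternatives other than single samples left out called 3408 to 7263 in treated against untreated samples (6155), 2480 to 3372 for the mean of the doses (2460), 632 to 2624 at 0.0005 μM (592), 838 to 3401 at 0.005 μM (827), 2095 to 4328 at 0.05 μM (2100), 1611 to 3624 at 0.5 μM (1596), 0 to 390 for C2 against C1 (82) and 420 to 1645 for the slope (773). The 0 came from the 4 samples of C1 and C2 alone. With 1 sample left out in turn, they were 4182 to 7078 in treated against untreated samples, 237 to 5664 for the mean of the doses, 144 to 2552, 85 to 3316, 321 to 4843 and 129 to 5046 at the doses in rising order, 47 to 2682 for C2 against C1 and 123 to 990 for the slope. For each comparison with C2, the lowest count was without C2 replicate 1 and the highest without a C1 sample.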
